A study of Mus musculus with 10 samples.

Results

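The LIM-only factors Lmo1 to Lmo4 and the LIM-domain-binding proteins Ldb1 and Ldb2 were followed through single-cell RNA sequencing libraries of the mouse cortex at E16.5. These 6 genes were chosen by name as a protein family and its cofactors, out of the 31053 genes counted in the files, and all 6 are among the counted genes. Each of 10 embryos gave 1 library. There were 3 wild-type embryos (Gatad2b WT), 4 heterozygous embryos (Gatad2b stop/+, called Het) and 3 homozygous embryos (Gatad2b stop/stop, called KO). The stop allele is the gene-trap cassette tm1a(EUCOMM)Hmgu, inherited through the germline and so present in every cell of the embryo, on a C57BL/6N-Atm1Brd background that all 3 genotypes share. No embryo received a treatment. Gatad2b encodes a subunit of the NuRD chromatin remodelling complex. The dissected cortex was dissociated with papain, and the libraries also held striatal, blood and vessel cells, so the values below are given per class of cells.

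LIM-only proteins consist of little more than a pair of LIM domains, zinc-binding modules that hold other proteins, and they do not bind DNA themselves. Ldb proteins dimerize and carry a short stretch that grips LIM domains, and so bridge LIM-homeodomain factors, LIM-only factors and their DNA-bound partners. A LIM-only protein can compete with a LIM-homeodomain factor for Ldb, which is why the amounts of both kinds of protein are of interest. Lmo4 is known as a marker of subsets of cortical projection neurons, Lmo2 as a factor of blood and endothelial development, and Lmo1 and Lmo3 as close relatives with neural expression. Ldb1 is used broadly, while Ldb2 is known from subcerebral projection neurons.

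Each gene lies on a chromosome of its own, and coordinates are those of GRCm38 with the GENCODE vM21 annotation. Lmo1 (ENSMUSG00000036111) lies at chr7:109138572-109175207, Lmo2 (ENSMUSG00000032698) at chr2:103957986-103981878 and Lmo3 (ENSMUSG00000030226) at chr6:138362918-138581968. Lmo4 (ENSMUSG00000028266) lies at chr3:144188530-144205220, Ldb1 (ENSMUSG00000025223) at chr19:46031570-46045214 and Ldb2 (ENSMUSG00000039706) at chr5:44472132-44799680. Lmo2 lies on the plus strand and the other 5 on the minus strand. Gatad2b itself lies on chromosome 3, as Lmo4 does. No annotated gene that overlaps a member on its own strand is among the counted genes.

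Barcodes with under 1000 UMIs or over 10% mitochondrial UMIs were left out, and 65779 of 80071 barcodes remained, with 5147 to 8103 cells and 82872641 to 123737385 UMIs per library. A UMI marks 1 captured RNA molecule, read near its 3′ end. The median cell held 13874 UMIs and 4021 genes. Cells were grouped into 25 clusters without using the 6 members or 27 other genes of LIM complexes, and clusters were named from marker lists. In 9 classes every embryo had at least 50 cells, and these were tested: layer II-IV neuron-like (11060 cells), layer V-VI neuron-like (6673), migrating excitatory neuron-like (8057), intermediate progenitor-like (3238), radial glia-like (1549), ganglionic eminence progenitor-like (1095), interneuron-like (11160), striatal neuron-like (6316) and erythroid-like (1565). Cajal-Retzius-like, endothelial-like, pericyte-like and microglia-like cells were too few in some embryos and are described without a test, and 13031 cells stayed unnamed. Levels below are in CPM, the UMIs of a gene per 1000000 UMIs of the class in an embryo, with mean ± SD over embryos. They are not divided by gene length, because a 3′ library gives 1 UMI per molecule, but capture can still differ between genes.

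In WT cortex each member had a different map. Lmo4 was found in every neural class and was highest in striatal neuron-like cells, at 837 ± 59.9 CPM (n = 3). Layer II-IV neuron-like cells came next among the named classes, at 445 ± 21.9, with no overlap between the embryos of both classes. This second place depended on the clustering: at a finer resolution of 0.8 layer II-IV neuron-like cells held 325 ± 31.8 Lmo4 CPM, below migrating excitatory neuron-like cells (417 ± 25.6) and a class of oligodendrocyte precursor-like cells (453 ± 48.3), and ganglionic eminence progenitor-like cells held 312 ± 32.6. Migrating excitatory neuron-like cells held 283 ± 14.9 and layer V-VI neuron-like cells 230 ± 12.5. Ganglionic eminence progenitor-like, radial glia-like and interneuron-like cells followed at 200 ± 27.6, 182 ± 23.9 and 175 ± 17.0, which differed by less than their spread. Intermediate progenitor-like cells had the lowest Lmo4 of the neural classes tested, 101 ± 9.44. Of all WT Lmo4 UMIs, 33.3% came from layer II-IV neuron-like cells, 28.5% from unnamed cells and 12.7% from striatal neuron-like cells.

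Lmo1 had another order of classes. Its highest level in a named WT class was 187 ± 14.7 CPM in migrating excitatory neuron-like cells, the neurons that have left the germinal zones and have not settled. Intermediate progenitor-like cells held 91.8 ± 16.6 Lmo1 CPM, ganglionic eminence progenitor-like cells 71.5 ± 19.6 and layer II-IV neuron-like cells 66.8 ± 2.83, and these neighbours in the order overlapped. Lmo1 was low in interneuron-like cells (17.7 ± 1.31) and striatal neuron-like cells (14.8 ± 3.33). The highest Lmo1 cluster of all was an unnamed one led by Crym, Slit3 and Nrp2, at 250 CPM, and 42.6% of WT Lmo1 UMIs lay in unnamed cells.

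Among the named classes of WT cortex Lmo3 was highest in deep layers, striatum and interneurons. Layer V-VI neuron-like cells held 270 ± 25.8 Lmo3 CPM, and the cluster led by Hs3st4 and Tle4 held 348 against 201 in the cluster led by Fezf2. These cells were 8.93% of WT cells and gave 35.5% of the Lmo3 UMIs. Striatal neuron-like and interneuron-like cells followed at 133 ± 8.58 and 132 ± 5.45 Lmo3 CPM and did not differ beyond their spread. Layer II-IV neuron-like cells held 27.7 ± 3.26 and migrating excitatory neuron-like cells 19.4 ± 2.92. At resolution 0.8 these Lmo3 levels were 46.0 ± 7.45 and 14.3 ± 2.48. Unnamed cells gave 29.85% of the WT Lmo3 UMIs. At resolution 0.8 Lmo3 was among the 10 leading genes of an unnamed cluster led by Tfap2d, Fam19a1 and Thsd7a.

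Lmo2 was the member of the vessels. In WT cortex it reached 300 ± 119 CPM in endothelial-like cells and 291 ± 42.8 in pericyte-like cells, a cluster of 326 cells with the endothelial marker Cldn5 among its leading genes. The level in pericyte-like cells depended on the clustering: at resolution 0.8 and without integration this class was a cluster of 194 cells with 20.4 ± 8.24 Lmo2 CPM, while endothelial-like cells held 343 ± 56.7 and 400.4 ± 24.7. Other Lmo2 levels in WT were 108 ± 15.4 in microglia-like cells and 30.2 ± 5.73 in erythroid-like cells. The neural classes tested held 0.83 to 9.35 Lmo2 CPM, and Cajal-Retzius-like cells 20.4 ± 2.06. Endothelial-like cells made up 0.585% of WT cells and gave 15.2% of the Lmo2 UMIs, and the cluster named pericyte-like at the main resolution made up 0.529% and gave 27.4%.

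Ldb1 varied less than Ldb2 among the neural classes. Among the neural classes tested, WT Ldb1 ran from 44.5 ± 4.07 CPM in radial glia-like cells to 103 ± 5.91 in striatal neuron-like cells. WT Ldb2 ran from 6.10 ± 2.45 in intermediate progenitor-like cells to 172 ± 8.17 in layer V-VI neuron-like cells, where the cluster led by Fezf2 held 252 and the cluster led by Hs3st4 held 82.0. Layer II-IV neuron-like cells held 82.9 ± 4.61 Ldb2 CPM. Layer II-IV and layer V-VI neuron-like cells together gave most WT Ldb2 UMIs, 38.7% and 38.2%. In erythroid-like cells, whose own program uses Lmo2 and Ldb1, the WT level of Ldb1 was 6.87 ± 1.18, and those of the other members were 25.0 for Lmo4, 9.05 for Lmo3, 8.12 for Lmo1 and 7.25 for Ldb2. The values of these other members serve below as the level that free RNA may give, and Ldb2 in intermediate progenitor-like cells lay at this level.

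**Figure D1:**
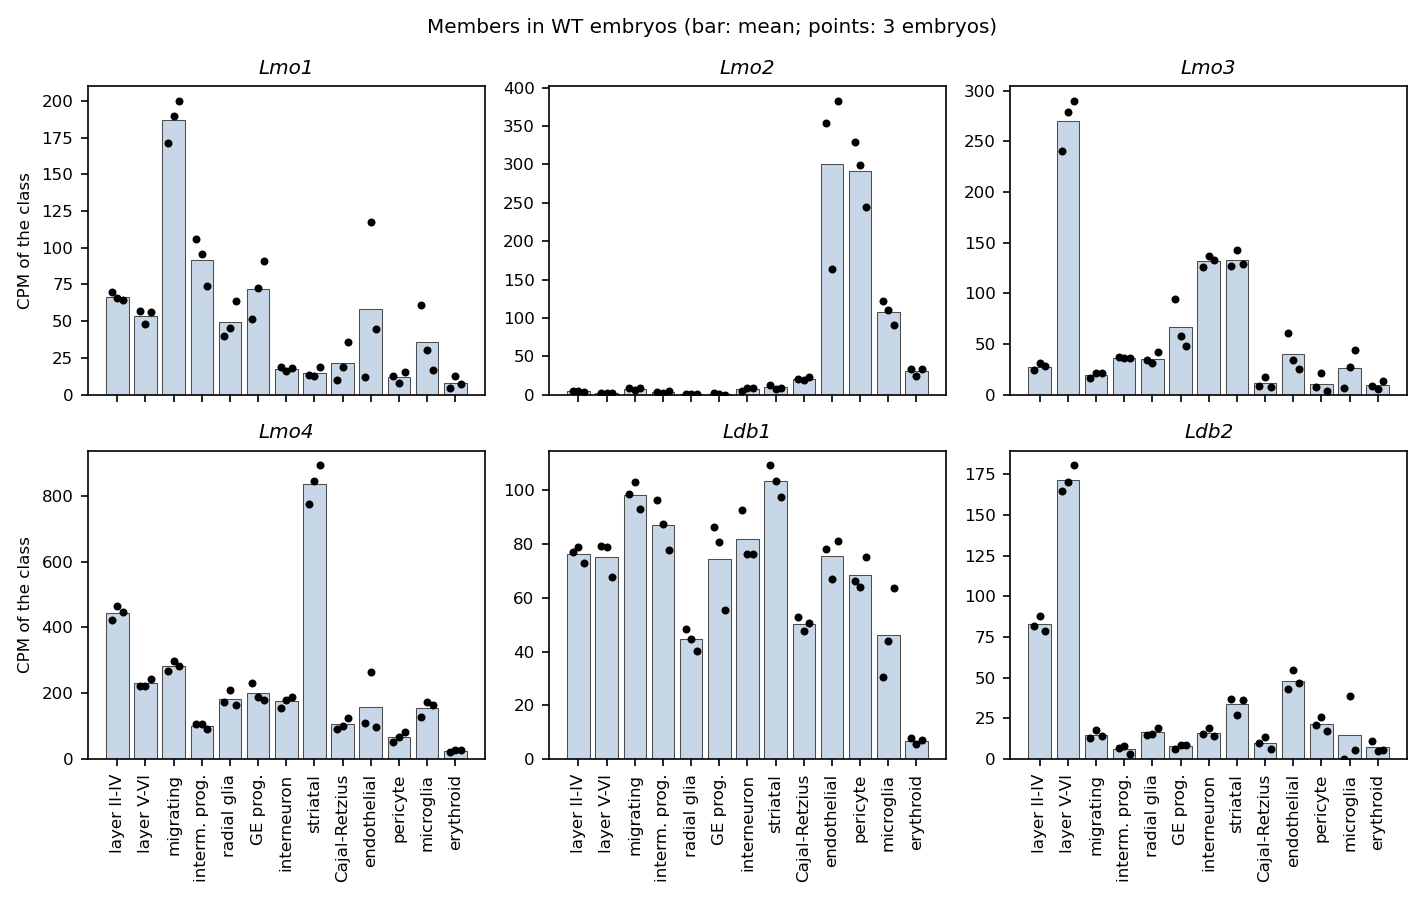
CPM of the class for each of the 6 genes (panels) in 13 classes of WT cells (x axis), with bars for the mean and points for the 3 embryos. Lmo4 is highest in striatal neuron-like cells (837), Lmo1 in migrating excitatory neuron-like cells (187), Lmo3 and Ldb2 in layer V-VI neuron-like cells (270 and 172) and Lmo2 in endothelial-like cells (300), with 291 in the pericyte-like cluster that held 20.4 in the other clusterings, while Ldb1 stays between 44.5 and 103 in the neural classes tested.

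The targeted gene was read first in every library. Gatad2b over all cells was 142, 132 and 138 CPM in the WT embryos, 93.1, 88.1, 89.3 and 96.6 in the Het embryos and 49.5, 51.8 and 58.2 in the KO embryos, so the genotypes did not overlap. The log2 fold change of Gatad2b was −1.32 (SE 0.05) in KO vs WT with an edgeR adjusted p of 1.1e-07, and −0.54 (SE 0.05) in Het vs WT with an adjusted p of 0.00076. The cassette lies in an intron and leaves the exons in place, and these UMIs do not tell which transcripts of the gene they come from.

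Genotypes were compared on UMIs summed per embryo, with all genes fitted together in edgeR. To be called, a gene needed an adjusted p below 0.05 and a log2 fold change beyond 0.25 in either direction. All log2 fold changes are from these TMM-normalized fits, except those with the classes at equal weight. Over all cells, 24.5% of all genes tested were called in KO vs WT, 5.50% in KO vs Het and 2.98% in Het vs WT. Of the 6 members, 3 were called in KO vs WT (Lmo1 and Ldb1 higher, Lmo4 lower), 1 in Het vs WT (Lmo1, higher) and 1 in KO vs Het (Lmo4, lower). The median log2 fold change of the members in KO vs WT was 0.14, beside −0.0055 over all genes tested. A member could be tested in 50 of 54 pairs of member and class. In KO vs WT 27 pairs were called (15 higher, 12 lower), in Het vs WT 4 (2 higher, 2 lower) and in KO vs Het 13 (7 higher, 6 lower).

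The share of all genes called differed widely between classes, and the members' counts read against it. In KO vs WT it was 28.1% in layer II-IV neuron-like cells (5 of 6 members called), 26.1% in layer V-VI neuron-like cells (3 of 6), 25.7% in migrating excitatory neuron-like cells (4 of 6), 19.8% in radial glia-like cells (4 of 5 tested), 18.6% in intermediate progenitor-like cells (3 of 6), 13.9% in striatal neuron-like cells (2 of 6), 9.17% in erythroid-like cells (2 of 4), 8.80% in interneuron-like cells (1 of 6) and 2.75% in ganglionic eminence progenitor-like cells (3 of 5). In Het vs WT it was 5.49% in layer II-IV (1 of 6 members), 5.48% in migrating (2 of 6), 2.85% in layer V-VI (1 of 6), 2.02% in radial glia-like, 1.03% in striatal and 0.471% in intermediate progenitor-like cells, the last 3 classes with no member called. No gene was called by edgeR in Het vs WT in erythroid-like, ganglionic eminence progenitor-like or interneuron-like cells (0%), where 190, 849 and 1824 genes had an unadjusted p under 0.05 and DESeq2 called 8, 7 and 86 genes. In KO vs Het the share was 11.6% in layer V-VI (1 of 6), 11.5% in layer II-IV (4 of 6), 6.97% in intermediate progenitor-like (1 of 6), 6.63% in erythroid-like (2 of 4), 6.30% in migrating (3 of 6), 2.13% in radial glia-like (1 of 5), 0.624% in striatal, 0.583% in interneuron-like and 0.154% in ganglionic eminence progenitor-like cells (1 of 5), with no member called in striatal or interneuron-like cells.

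The library names carry one of a pair of prefixes whose meaning is not given in the sources used here. The 3 WT embryos and Het 4 share one, and Het 1 to 3 and the 3 KO embryos share the other, so KO and WT can be told apart from the prefix only through the Het embryos. With the prefix as a covariate, 8 of the 27 pairs called in KO vs WT were called, and over all cells Lmo4 (−0.87, adjusted p = 0.0085) and Lmo1 (0.35, adjusted p = 0.026) were called while Ldb1 was not (0.17, adjusted p = 0.19). Comparing Het 1 to 3 with KO 1 to 3, which share a prefix, left 13 pairs called. The shares of all genes called in these fits are not given here, so the counts are not read as particular to the members. The SE also widened under the covariate, for Ldb1 over all cells from 0.049 to 0.076. Clustering was the other choice that moved many calls. Of the 49 called member results, 44 had a value at resolution 0.8, where 32 kept an adjusted p below 0.05 in the same direction. Without integration 40 had a value, and 31 kept it so. Among these, Lmo1 in KO vs WT was under the fold threshold in layer V-VI neuron-like cells at resolution 0.8 (0.243). The same held for Lmo1 in migrating excitatory neuron-like cells without integration (0.236).

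Lmo4 fell in cortical projection neurons of both layer groups. In layer II-IV neuron-like cells the 3 WT embryos held 422.018, 466 and 446 Lmo4 CPM, the Het embryos 329, 358, 400 and 227, and the KO embryos 167, 165 and 189. All Het embryos lay between the WT and the KO embryos, and no genotypes overlapped. The log2 fold change in KO vs WT was −1.32 (SE 0.14, adjusted p = 4.5e-06), a 2.5-fold lower level, and in KO vs Het −0.92 (SE 0.13, adjusted p = 0.00020). In Het vs WT it was −0.40 (SE 0.13), which missed the threshold with an adjusted p of 0.065. In the same cells the summed layer V-VI marker list was higher in KO (560 against 290 CPM in WT, 5 of 14 genes lower) and the interneuron list lower (74.6 against 162, 13 of 14 genes lower), and their part in the Lmo4 value was not tested. In layer V-VI neuron-like cells the WT embryos held 222, 223 and 244 Lmo4 CPM, the Het embryos 160, 171, 193 and 142, and the KO embryos 87.9, 81.1 and 85.2. Here every Het embryo lay below every WT embryo and above every KO embryo. The changes were −1.37 (SE 0.08, adjusted p = 2.6e-09) in KO vs WT, −0.44 (SE 0.08, adjusted p = 0.0049) in Het vs WT and −0.93 (SE 0.08, adjusted p = 2.9e-07) in KO vs Het. The Het vs WT call of Lmo4 was lost at resolution 0.8 (−0.31, adjusted p = 0.15). In the same layer V-VI neuron-like cells the summed layer II-IV marker list went from 720 CPM in WT to 617 in Het and 525 in KO, with 10 of 10 genes lower in KO. The interneuron list there held 350 CPM in WT, 393 in Het and 176 in KO, with 11 of 14 genes lower in KO. The part of these lists in the Lmo4 value was not tested.

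The prefix of the WT embryos holds no KO embryo and 1 Het embryo, Het 4, which had the lowest Lmo4 of the Het embryos in both layer groups. The fits with the prefix as a covariate rest on this 1 library. With the prefix as a covariate Lmo4 changed by −2.02 in layer II-IV neuron-like cells (adjusted p = 2.1e-08) and −1.67 in layer V-VI neuron-like cells (adjusted p = 1.2e-08) in KO vs WT, and by −0.95 (adjusted p = 0.00013) and −0.67 (adjusted p = 0.00098) in Het vs WT. Between KO 1 to 3 and Het 1 to 3 the changes of Lmo4 were −1.06 (adjusted p = 4.8e-08) and −1.0 (adjusted p = 9.2e-09). Each of the clusters in these classes, tested alone, called Lmo4 lower in KO vs WT: −1.35 and −1.30 in the clusters of layer II-IV neuron-like cells, and −1.10 and −1.51 in those of layer V-VI neuron-like cells.

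In the other neural classes the Lmo4 difference was smaller in the main clustering, or did not pass the test. Radial glia-like cells went from 173, 209 and 164 Lmo4 CPM in WT to 117, 79.7 and 102 in KO without overlap, a log2 fold change of −0.80 (SE 0.15, adjusted p = 0.0012). With the prefix as a covariate this was −0.91 with an adjusted p of 0.052, and at resolution 0.8 it was −0.52 (adjusted p = 0.0089). The summed layer II-IV marker list in radial glia-like cells went from 518 CPM in WT to 371 in KO with 8 of 10 genes lower, and the layer V-VI list from 449 to 380 with 11 of 14 lower. Migrating excitatory neuron-like cells went from 268, 298 and 282 to 222, 192 and 197 (−0.41, SE 0.07, adjusted p = 0.00031), and the change was −0.54 with the prefix as a covariate (adjusted p = 0.0027) and −1.13 at resolution 0.8 (adjusted p = 1.8e-06). In these cells too the layer II-IV marker list was lower in KO, 1312 against 1674 CPM in WT, with 8 of 10 genes lower. The striatal list there was also lower in KO, 1753 against 2363 CPM, with 11 of 13 genes lower. Ganglionic eminence progenitor-like cells fell by 0.46 on the log2 scale (adjusted p = 0.020), from 180 to 232 Lmo4 CPM in WT to 140 to 142 in KO. That call of Lmo4 was lost when WT 1, KO 2 or KO 3 was left out, with the prefix as a covariate (−0.67, adjusted p = 0.21) and at resolution 0.8 (−0.09, adjusted p = 0.59). In KO vs Het Lmo4 changed by −0.62 there (adjusted p = 0.0026), and by −0.67 (adjusted p = 0.00016) between KO 1 to 3 and Het 1 to 3, and at resolution 0.8 this was −0.09 (adjusted p = 0.78). In ganglionic eminence progenitor-like cells the summed striatal marker list went from 1652 CPM in WT to 1185 in KO, without overlap and with 9 of 13 genes lower, and the layer II-IV list from 398 to 324 with 10 of 10 lower. The part of these lists in the Lmo4 values was not tested.

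Striatal neuron-like cells, with the highest Lmo4, held 774, 845 and 893 Lmo4 CPM in WT and 735, 674 and 778 in KO, and the embryos overlapped (−0.17, SE 0.08, adjusted p = 0.18). Without integration Lmo4 was called lower there (−0.26, adjusted p = 0.032). Interneuron-like cells gave 157 to 190 in WT and 170 to 192 in KO (0.07, SE 0.09, adjusted p = 0.64). Tested alone, the cluster of that class led by Maf, Nxph1 and Lhx6 gave an Lmo4 rise of 0.35. The cluster led by Adarb2 and Htr3a gave −0.27, which was not called, and the difference between these clusters was not tested. The other clusters of the class had too few cells in some embryos to be fitted. Intermediate progenitor-like cells gave −0.11 (SE 0.13, adjusted p = 0.61). Over all cells Lmo4 fell from 330, 369 and 385 CPM in WT to 229.5, 218 and 242 in KO (−0.61, SE 0.10, adjusted p = 0.0011), a sum in which the makeup of the cells also counts.

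**Figure D2:**
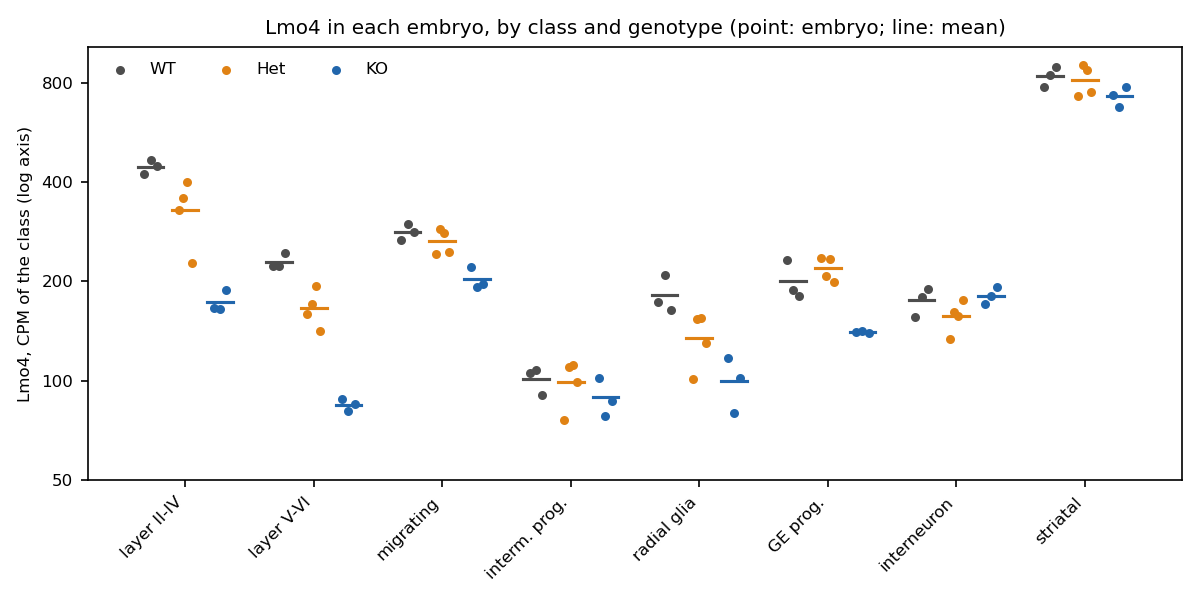
Lmo4 CPM of the class on a log axis, in 8 neural classes (x axis) and 3 genotypes (colors), with a point for each embryo and a line for the mean. The KO embryos lie at 165 to 189 in layer II-IV neuron-like cells and at 81.1 to 87.9 in layer V-VI neuron-like cells, below all WT embryos, while WT and KO embryos overlap in striatal and interneuron-like cells.

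Lmo1 moved the other way in the same upper-layer neurons. Layer II-IV neuron-like cells held 70.0, 65.6 and 64.7 Lmo1 CPM in WT, 92.1, 105, 86.3 and 95.7 in Het and 137, 133 and 116 in KO. The genotypes did not overlap, and the Het embryos lay in between. Lmo1 rose by 0.98 on the log2 scale in KO vs WT (SE 0.08, adjusted p = 2.2e-07), by 0.54 in Het vs WT (SE 0.07, adjusted p = 0.00079) and by 0.44 in KO vs Het (SE 0.07, adjusted p = 0.00056). The prefix as a covariate left the first 2 changes at 0.98 (adjusted p = 7.9e-05) and 0.54 (adjusted p = 0.016), and KO 1 to 3 against Het 1 to 3 gave 0.44 (adjusted p = 0.00093). Het 4, which shares its prefix with the WT embryos, lay above all of them. The 2 clusters of this class gave KO vs Het values of Lmo1 of 0.72 in the larger one and −0.01 in the smaller one, led by Inhba and Kcnip4. The difference between these clusters was not tested. At resolution 0.8 Lmo1 changed by 0.58 in KO vs WT (adjusted p = 0.0019), and the KO vs Het difference was −0.004 (adjusted p = 0.99). In the same cells the layer V-VI marker list held 290, 354 and 560 CPM in WT, Het and KO, with 5 of 14 genes lower in KO. The interneuron list held 162, 121 and 74.6, with 13 of 14 lower in KO. The part of these lists in the Lmo1 value was not tested.

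In radial glia-like cells Lmo1 was called only where KO embryos were compared. Their cluster scored 3.5 on the oligodendrocyte precursor list and 2.59 on the radial glia list. These cells held 40.0, 45.2 and 63.6 Lmo1 CPM in WT, 42.3, 60.3, 55.9 and 54.3 in Het and 114, 123 and 98.2 in KO. WT and Het embryos overlapped, and all KO embryos lay above them. The change was 1.21 in KO vs WT (SE 0.14, adjusted p = 3.1e-05), a 2.31-fold higher level, and 1.10 in KO vs Het (SE 0.13, adjusted p = 0.00026). Within the prefix of the KO embryos it was 1.09 against Het 1 to 3 (adjusted p = 0.00025), and with the prefix as a covariate 1.21 in KO vs WT (adjusted p = 0.011).

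Migrating excitatory neuron-like cells, with the most Lmo1, rose from 171, 190 and 200 CPM in WT to 208, 248, 220 and 222 in Het and 227, 212 and 218 in KO. Lmo1 there was 0.30 higher in Het vs WT (SE 0.06, adjusted p = 0.0080) and 0.29 higher in KO vs WT (SE 0.06, adjusted p = 0.0023). With the prefix as a covariate the changes were 0.29 and 0.27, and neither was called (adjusted p = 0.094 and 0.11). At resolution 0.8 the changes of Lmo1 were larger, 0.45 and 0.65 (adjusted p = 2.2e-05 and 4.0e-08). Without integration they were smaller, 0.25 and 0.236 (adjusted p = 0.011 and 0.0029). Lmo1 also rose in KO vs WT in ganglionic eminence progenitor-like cells (0.80, adjusted p = 0.0078), intermediate progenitor-like cells (0.45, adjusted p = 0.023) and layer V-VI neuron-like cells (0.26, adjusted p = 0.040). The call of Lmo1 in ganglionic eminence progenitor-like cells was lost without WT 1 or KO 3. The calls in the other pair of classes were each lost when any of WT 2, WT 3, KO 1 or KO 2 was left out. Under the prefix covariate none of the 3 was called. The changes there were 0.89 in ganglionic eminence progenitor-like, 0.02 in intermediate progenitor-like and 0.23 in layer V-VI neuron-like cells. The call in intermediate progenitor-like cells was also lost in both other clusterings (0.22 and 0.25, adjusted p = 0.14 and 0.083).

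In the neural classes with the least Lmo1 no call was made. The values of Lmo1 were 17.7 ± 1.31 in WT and 14.0 ± 0.542 in KO in interneuron-like cells (−0.31, adjusted p = 0.25) and 14.8 ± 3.33 and 11.1 ± 2.25 in striatal neuron-like cells (−0.41, adjusted p = 0.15). Tested cluster by cluster, Lmo1 fell in 2 interneuron-like clusters (−0.73 and −1.77) and in 1 striatal neuron-like cluster (−1.11). The level of Lmo1 in erythroid-like cells moved the same way, from 8.12 CPM in WT to 2.35 in KO, and its part in these low values was not tested. Over all cells Lmo1 held 92.3, 90.4 and 95.9 CPM in WT, 116, 122, 116 and 107 in Het and 137, 129 and 125 in KO. That was a rise of 0.53 in KO vs WT (SE 0.06, adjusted p = 0.00012) and of 0.35 in Het vs WT (SE 0.06, adjusted p = 0.014), the second lost without WT 1, with the prefix as a covariate (0.21, adjusted p = 0.27) and with the classes at equal weight (0.15, adjusted p = 0.20).

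Lmo3 was not called over all cells and changed in opposite directions by class. Its total was 91.6, 108 and 94.1 CPM in WT and 101, 84.0 and 99.0 in KO, with overlap (−0.01, SE 0.10, adjusted p = 0.97). Lmo3 fell in striatal neuron-like cells, from 127, 143 and 129 to 93.1, 105 and 111 (−0.34, SE 0.08, adjusted p = 0.0098). It fell in interneuron-like cells from 126, 137 and 133 to 98.8, 86.8 and 111 (−0.39, SE 0.09, adjusted p = 0.024) and in intermediate progenitor-like cells from 37.1, 36.5 and 35.6 to 28.8, 21.4 and 29.3 (−0.36, SE 0.11, adjusted p = 0.023). In all 3 classes the WT and KO embryos did not overlap. In intermediate progenitor-like cells the layer II-IV marker list went from 758 CPM in WT to 638 in KO, with 10 of 10 genes lower. The striatal list there went from 1879 to 1618 (8 of 13 lower) and the interneuron list from 402 to 395 (12 of 14 lower). The layer V-VI list went from 599 to 610 (9 of 14 lower). The part of these lists in the Lmo3 value was not tested. In layer II-IV neuron-like cells, which hold little of it, Lmo3 rose from 24.4, 30.9 and 27.7 to 34.5, 36.9 and 39.1 (0.45, SE 0.14, adjusted p = 0.019). Layer V-VI neuron-like cells, its main class, held 241, 279 and 290 in WT and 241, 228 and 259 in KO, with overlap. Tested alone, its cluster led by Fezf2 called Lmo3 lower (−0.51, adjusted p = 0.0019) and its cluster led by Hs3st4 gave 0.14 (adjusted p = 0.29).

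The Lmo3 calls were the less stable ones. With the prefix as a covariate none of the 4 was called (adjusted p from 0.50 to 0.67), although the sign of each was kept, and each was lost without at least 1 library: WT 2 for striatal neuron-like cells, WT 2, WT 3, KO 1 or KO 2 for interneuron-like cells, WT 1, WT 2, WT 3 or KO 2 for intermediate progenitor-like cells, and WT 1, KO 2 or KO 3 for layer II-IV neuron-like cells. The rise of Lmo3 in layer II-IV neuron-like cells was also called in KO vs Het (0.66, SE 0.13, adjusted p = 0.0033) and between KO 1 to 3 and Het 1 to 3 (0.61, adjusted p = 0.0046), and it was not called at 5% mitochondrial UMIs. At resolution 0.8 the KO vs WT calls of Lmo3 in layer II-IV neuron-like cells (0.34, adjusted p = 0.14) and striatal neuron-like cells (−0.25, adjusted p = 0.087) were lost, and without integration the one in interneuron-like cells (−0.29, adjusted p = 0.23). In layer II-IV neuron-like cells the summed level of the layer V-VI marker list was also higher in KO, from 272 to 309 CPM in WT to 530 to 586 in KO over the 14 listed genes found, of which 5 were lower in KO, and its part in the Lmo3 value was not tested.

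Lmo2 was not called between genotypes over all cells, at 11.8, 10.7 and 12.5 CPM in WT and 13.1, 12.3 and 12.7 in KO (0.17, SE 0.13, adjusted p = 0.33). Without the endothelial-like, pericyte-like, microglia-like and erythroid-like cells it was 6.10 ± 0.80 in WT, 6.35 ± 0.19 in Het and 7.12 ± 0.28 in KO. In endothelial-like cells the WT embryos held 354, 163 and 383 Lmo2 CPM and the KO embryos 451, 466 and 315, with overlap and as few as 11 cells in an embryo. The Het 3 embryo stood apart there, with 341 endothelial-like cells of the 598, an Lmo2 level of 55.5 and a summed level of the 7 endothelial markers of 646 CPM, against 2637 to 7314 in the other embryos, which goes against the name of the class in that library.

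Migrating excitatory neuron-like cells were the one neural class tested in which Lmo2 was called. They held 8.32, 6.36 and 8.20 CPM in WT and 11.1, 10.6 and 10.8 in KO without overlap, a rise of 0.56 (SE 0.12, adjusted p = 0.0019), a call lost under the prefix covariate (0.52, adjusted p = 0.14). In KO vs Het it was 0.44 (adjusted p = 0.019), lost without any 1 of the KO embryos. At resolution 0.8 these Lmo2 changes were 0.34 (adjusted p = 0.022) and 0.13 (adjusted p = 0.49). Tested alone, the unnamed cluster led by Crym, Slit3 and Nrp2 also called Lmo2 higher, by 0.72 in KO vs WT (adjusted p = 0.0011) and by 0.52 in KO vs Het (adjusted p = 0.016). Erythroid-like cells, where Lmo2 works with blood transcription factors, were called higher in KO vs WT (1.60, SE 0.26, adjusted p = 0.00049) although the plain levels overlapped, 33.3, 23.6 and 33.6 in WT and 23.9, 31.9 and 29.6 in KO. The TMM factors of that class ran from 0.401 to 1.91, so this direction depends on the scaling. The call was lost without integration (1.31, adjusted p = 0.12) and with the prefix as a covariate (1.35). In KO vs Het Lmo2 there was called 1.44 higher (adjusted p = 0.0034), lost without KO 1 or KO 2 and without integration (1.30, adjusted p = 0.16). Lmo4 was called lower in erythroid-like cells in KO vs WT (−1.80, SE 0.54, adjusted p = 0.037; −2.49 with the prefix as a covariate, adjusted p = 0.044) and in KO vs Het (−1.89, adjusted p = 0.033). The Lmo4 levels there were 21.3, 27.8 and 26.0 CPM in WT and 1.36, 4.56 and 0.871 in KO, from 1 to 6 UMIs in each KO embryo, and neither call held without integration (adjusted p = 0.14 and 0.32). Summed markers of neurons in the erythroid-like cells were lower in KO beside it, from 81.6 CPM in WT to 21.0 for layer II-IV neurons (10 of 10 markers lower), 80.8 to 19.6 for layer V-VI neurons (13 of 14), 104 to 19.7 for striatal neurons (13 of 13) and 82.1 to 23.7 for interneurons (13 of 14), and their part in the Lmo4 values was not tested.

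Ldb1 rose a little and broadly. Over all cells it held 80.8, 77.5 and 72.8 CPM in WT, 83.8, 82.0, 85.5 and 80.0 in Het and 87.2, 92.6 and 91.2 in KO. KO and WT did not overlap, and Het overlapped WT. The log2 fold change in KO vs WT was 0.27 (SE 0.05, adjusted p = 0.0018), and with the classes at equal weight 0.19 (adjusted p = 0.081). The equal weight includes erythroid-like cells, where Ldb1 held 35 UMIs in WT and 7 in KO, too few to be tested. TMM factors there ran from 0.401 to 1.91, and the part of that class in the lower value was not tested. Ldb1 was called higher in KO vs WT in 5 classes: intermediate progenitor-like (0.44, SE 0.09, adjusted p = 0.0030), radial glia-like (0.34, SE 0.11, adjusted p = 0.031), striatal neuron-like (0.29, SE 0.07, adjusted p = 0.013), layer II-IV neuron-like (0.28, SE 0.05, adjusted p = 0.00074) and layer V-VI neuron-like cells (0.27, SE 0.08, adjusted p = 0.012). In no class was Ldb1 called in Het vs WT or in KO vs Het. None of these calls held with the prefix as a covariate, where Ldb1 gave 0.17 over all cells and 0.09 to 0.43 in the 5 classes. The calls in radial glia-like, striatal and layer V-VI neuron-like cells were each lost without at least 1 library: WT 2, WT 3, KO 1 or KO 2, WT 3 or KO 2, and WT 3 or KO 3. At resolution 0.8 the call of Ldb1 in layer II-IV neuron-like cells was lost (0.18, adjusted p = 0.053).

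Ldb2 rose in the upper layers, where WT cells hold less of it than deep-layer cells do. Layer II-IV neuron-like cells held 82.0, 87.9 and 78.8 Ldb2 CPM in WT, 91.8, 93.9, 90.9 and 103 in Het and 120, 119 and 139 in KO. The genotypes did not overlap and the Het embryos lay between. In Het vs WT the Ldb2 difference of 0.23 (SE 0.06, adjusted p = 0.032) was under the fold threshold. The log2 fold change was 0.64 in KO vs WT (SE 0.06, adjusted p = 2.3e-06) and 0.41 in KO vs Het (SE 0.06, adjusted p = 0.00020). With the prefix as a covariate it was 0.78 in KO vs WT (adjusted p = 4.2e-05) and 0.33 in Het vs WT (adjusted p = 0.045), fits that rest on Het 4, and KO 1 to 3 against Het 1 to 3 gave 0.45 (adjusted p = 2.7e-05). Both clusters of the class called it, at 0.57 and 0.95. The higher sum of the layer V-VI marker list in the same cells is given above, and its part in the Ldb2 value was not tested.

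In layer V-VI neuron-like cells Ldb2 held 165, 170 and 181 CPM in WT and 178, 175 and 201 in KO (0.17, adjusted p = 0.036, under the fold threshold). Tested alone, the cluster of that class led by Hs3st4, with the lower Ldb2, rose by 0.67. The cluster led by Fezf2, with the higher Ldb2, gave −0.03, and the difference between both clusters was not tested. Ldb2 was called lower in 3 of the classes where its WT level was low. It was not called in intermediate progenitor-like (−0.75, adjusted p = 0.10), interneuron-like (−0.48, adjusted p = 0.21) or striatal neuron-like cells (−0.64, adjusted p = 0.12), although 1 cluster of interneuron-like cells (−0.98, adjusted p = 0.023) and 1 of striatal neuron-like cells (−1.30, adjusted p = 0.012) called it lower. Migrating excitatory neuron-like cells went from 12.9, 17.6 and 14.1 CPM in WT to 8.08, 12.1, 10.7 and 7.84 in Het and 6.13, 6.19 and 5.90 in KO, −1.22 in KO vs WT (SE 0.16, adjusted p = 2.2e-05) and −1.58 with the prefix as a covariate (adjusted p = 0.00030). The size of this Ldb2 change depended on the clustering, at −0.27 at resolution 0.8 (adjusted p = 0.0066), where the WT level of the class was 39.7 ± 2.23 CPM, and −0.54 without integration (adjusted p = 0.0054). In Het vs WT Ldb2 there was also called lower (−0.60, adjusted p = 0.018). That call was lost without WT 2, WT 3 or Het 1 and without integration (−0.37, adjusted p = 0.098). The layer II-IV and striatal marker lists were lower in these KO cells, as given above. Their part in the Ldb2 values was not tested. Radial glia-like cells gave −0.69 (SE 0.20, adjusted p = 0.020) and ganglionic eminence progenitor-like cells −1.94 (SE 0.48, adjusted p = 0.029). Each call was lost without at least 1 library (WT 3, KO 1 or KO 2 for the former, any WT or KO embryo for the latter). With the prefix as a covariate the changes were −0.72 and −1.81, and neither was called. The former call was also lost at resolution 0.8 (−0.43, adjusted p = 0.17). Beside these stand the 7.25 Ldb2 CPM of WT erythroid-like cells, near the WT level in ganglionic eminence progenitor-like cells (7.79 ± 1.18) and under those in migrating excitatory neuron-like (14.9 ± 2.41) and radial glia-like cells (16.4 ± 2.48). That erythroid-like level itself was 2.07 in Het and 0.580 in KO. The part of free RNA in the low Ldb2 values was not tested.

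**Figure D3:**
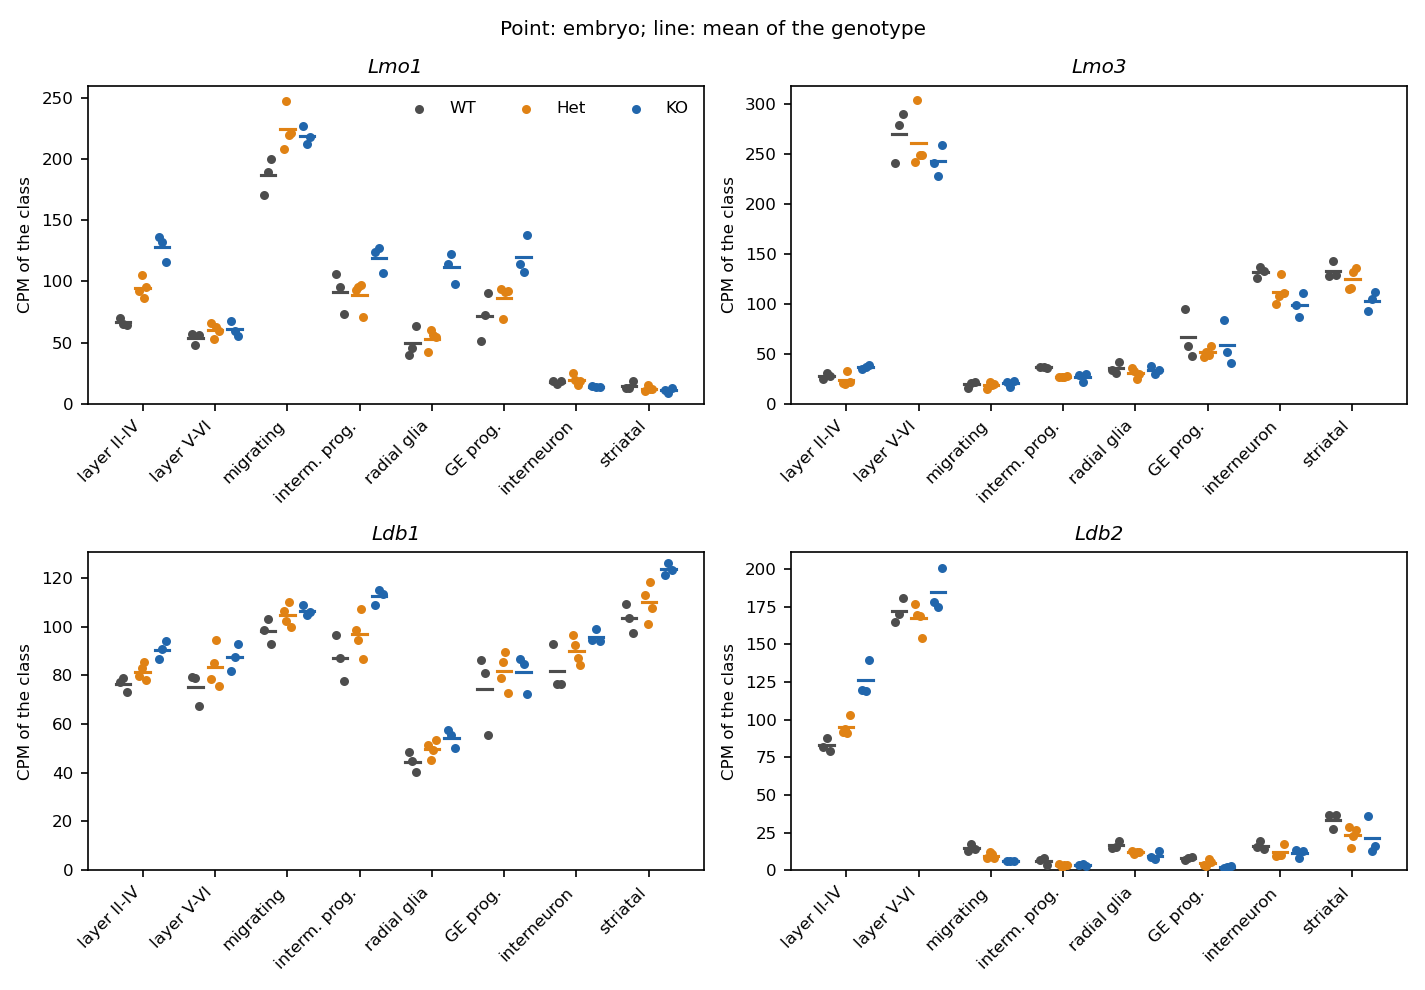
CPM of the class of Lmo1, Lmo3, Ldb1 and Ldb2 (panels) in 8 neural classes (x axis) and 3 genotypes (colors), with a point for each embryo and a line for the mean. In layer II-IV neuron-like cells Lmo1 (64.7 to 70.0 in WT, 116 to 137 in KO) and Ldb2 (78.8 to 87.9 in WT, 119 to 139 in KO) separate by genotype, and Lmo1 does so in radial glia-like cells for KO alone.

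**Figure D4:**
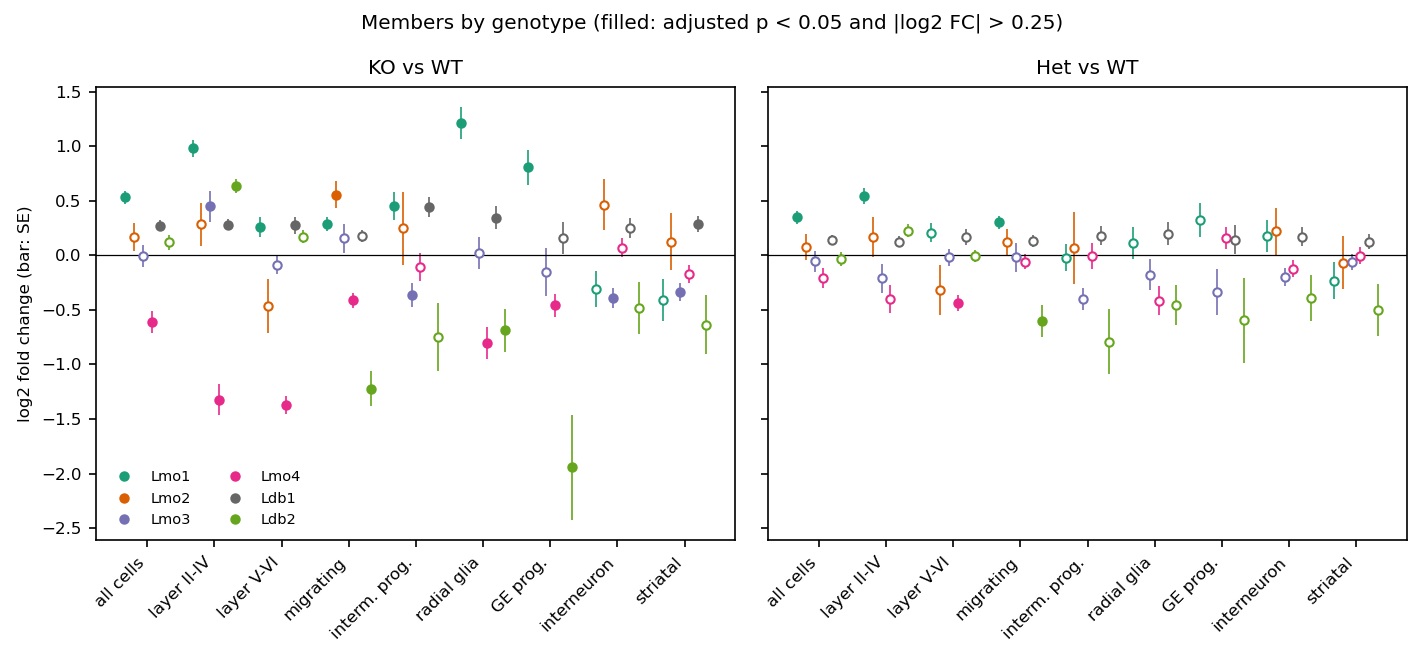
The log2 fold changes of the 6 genes (colors) in KO vs WT and Het vs WT (panels) over all cells and in 8 neural classes (x axis), with bars for the SE and filled points for calls. Lmo4 reaches −1.32 and −1.37 in layer II-IV and layer V-VI neuron-like cells while Lmo1 reaches 0.98 in layer II-IV and 1.21 in radial glia-like cells.

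Whether a change was different in another neural class was tested as such, as the KO vs WT change of a class minus that of layer II-IV neuron-like cells. The share of all genes called in this test was 14.2% for radial glia-like, 11.5% for intermediate progenitor-like, 10.7% for layer V-VI, 8.85% for striatal, 8.34% for migrating, 6.48% for interneuron-like and 2.63% for ganglionic eminence progenitor-like cells. The Lmo4 change was less negative than in layer II-IV neuron-like cells, or above 0, in 6 of these 7 classes, by 0.53 in radial glia-like to 1.40 in interneuron-like cells on the log2 scale. For layer V-VI neuron-like cells the difference was −0.05 (SE 0.08, adjusted p = 0.76). Ldb2 differed from layer II-IV neuron-like cells in all 7 classes (−0.47 to −2.58), Lmo1 in 5 (−0.50 in intermediate progenitor-like to −1.40 in striatal neuron-like cells) and Lmo3 in 4 (−0.54 to −0.84). The difference of Lmo1 was not called for radial glia-like cells (0.25, adjusted p = 0.23) or ganglionic eminence progenitor-like cells (−0.14, adjusted p = 0.80). Ldb1 was called in none of the 7. The differences of migrating excitatory neuron-like cells, 0.91 for Lmo4 and −0.68 for Lmo1, depended on the clustering. At resolution 0.8 the KO vs WT change of Lmo4 was −1.13 there and −1.16 in layer II-IV neuron-like cells, and that of Lmo1 was 0.65 and 0.58, and the difference was not tested at that resolution.

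The changes given above also enter the ratio of LIM-only to Ldb transcripts. The UMIs of Lmo1 to Lmo4 were summed and divided by those of Ldb1 and Ldb2 in each embryo, as a description without a test. In WT layer II-IV neuron-like cells Lmo4 gave 38922 UMIs of this sum, beside 5863 of Lmo1, 2419 of Lmo3 and 365 of Lmo2. The ratio there therefore largely restates the Lmo4 values, and capture can differ between the genes summed. In layer II-IV neuron-like cells the ratio was 3.27, 3.40 and 3.57 in WT, 2.61, 2.77, 2.96 and 1.92 in Het and 1.66, 1.62 and 1.49 in KO, with no overlap between genotypes. In layer V-VI neuron-like cells it was 2.14, 2.21 and 2.39 in WT, 1.84, 2.08, 1.93 and 1.97 in Het and 1.53, 1.41 and 1.36 in KO, again without overlap. Intermediate progenitor-like cells held 2.43 to 2.54 in WT and 1.93 to 2.30 in KO. Of the neural classes tested, striatal neuron-like cells had the highest ratio, 7.29 ± 0.83 in WT and 5.90 ± 0.57 in KO, and migrating excitatory neuron-like cells went from 4.4 ± 0.33 to 4.03 ± 0.15.

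**Figure D5:**
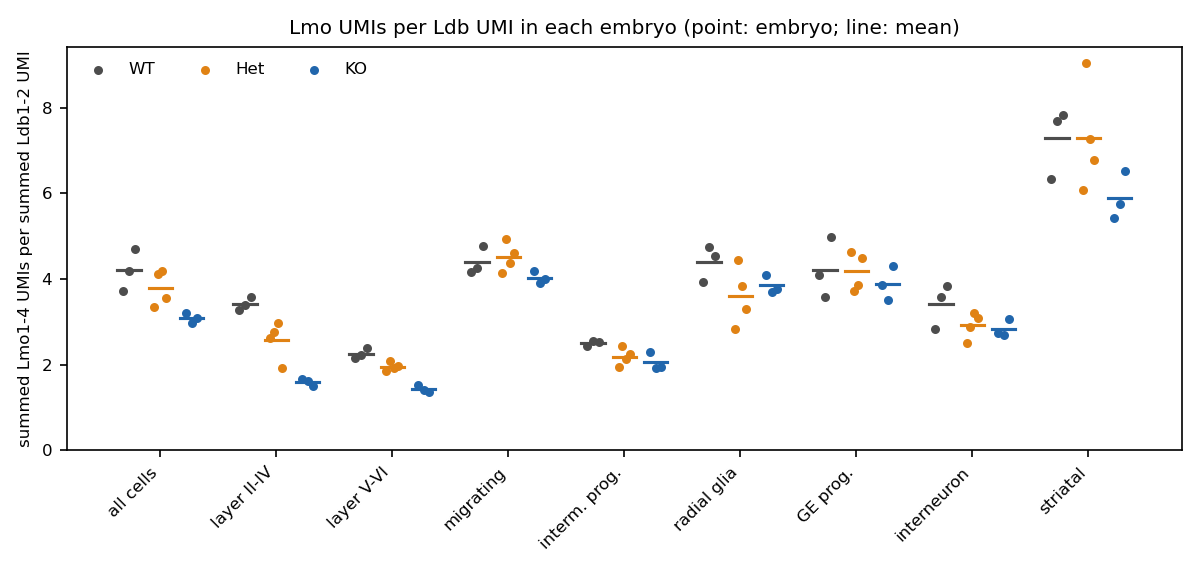
Summed UMIs of Lmo1 to Lmo4 per summed UMI of Ldb1 and Ldb2 over all cells and in 8 neural classes (x axis), by genotype (colors), with a point for each embryo and a line for the mean. The ratio goes from 3.27 to 3.57 in WT to 1.49 to 1.66 in KO in layer II-IV neuron-like cells.

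The share of cells with a UMI was compared after thinning each cell to 3000 UMIs, since deeper cells show more genes. Lmo4 was found in 54.6 ± 1.58% of WT and 35.4 ± 2.39% of KO layer II-IV neuron-like cells, from 4464 and 2378 cells, with 12 and 2 shallower cells left out. Without thinning both shares were near each other, 85.3 ± 1.91% and 84.0 ± 0.449%, at full depth, where erythroid-like cells gave 13.3% and 2.41%. In layer V-VI neuron-like cells the thinned shares for Lmo4 were 37.8 ± 1.33% and 20.1 ± 1.06% (unthinned 78.4% and 66.3%). In thinned erythroid-like cells, which should lack it, Lmo4 was found in 4.81% of WT and 0.370% of KO cells. Lmo1 went from 16.0 ± 1.65% to 29.7 ± 2.52% of thinned layer II-IV neuron-like cells (unthinned 52.6% and 79.3%) and from 9.52 ± 1.86% to 22.4 ± 2.08% of thinned radial glia-like cells (unthinned 38.0% and 63.0%), beside 1.56% and 0.595% in erythroid-like cells. Ldb2 went from 18.0 ± 0.849% to 27.7 ± 2.51% in thinned layer II-IV neuron-like cells (unthinned 51.1% and 71.2%), beside 0.735% and 0% in erythroid-like cells.

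Across the 25 clusters in WT, Lmo4 and Ldb1 had the most similar levels of any pair of members (Pearson r = 0.604), followed by Lmo3 and Lmo4 (0.50) and Lmo4 and Ldb2 (0.468), while Lmo2 had a negative r with each of the other 5. These values describe clusters that come from the same 3 libraries and carry no test. Of 13056 genes compared, those most like Lmo4 were Bzw2 (0.828), Robo1 (0.821) and Ube2d1 (0.809), and those most like Lmo1 were Zbtb18 (0.844), Efna4 (0.828) and Wwc1 (0.827). Lmo3 was closest to Cadm1 (0.859), Fam110b (0.844) and Pcsk2 (0.824), Lmo2 to Tgfb1 (0.865), Icam1 (0.849) and Arhgap27 (0.849), Ldb2 to Camkv (0.856), Acvr1c (0.85) and 2900079G21Rik (0.847), and Ldb1 to Kdm6b (0.970), Ccnt1 (0.964) and Ankrd10 (0.963). In thinned layer II-IV neuron-like cells of WT, a UMI of Lmo4 and one of Ldb2 were found in the same cell 1.23 ± 0.07 times as often as the product of their shares gives, and in KO 1.04 ± 0.11 times.

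The other genes of LIM complexes were read as a list of 27: LIM-homeodomain factors, Ldb cofactors, and the bHLH, GATA and other partners. Over all cells 22 could be tested, and 8 were called in KO vs WT (3 higher, 5 lower), beside 24.5% of all genes tested, with a median of −0.11. The single-stranded DNA-binding protein Ssbp2, which stabilizes Ldb proteins, fell by 0.60 (adjusted p = 1.0e-05). Rbbp8, also known as CtIP and a binding partner of Lmo4, rose by 0.56 (adjusted p = 0.00015), while the Lmo4-binding factor Deaf1 fell by 0.34 (adjusted p = 0.00035). The LIM-homeodomain factor Lhx2, which acts in cortical progenitors, rose by 0.32 (adjusted p = 0.0013), and Lhx6, a factor of interneurons, fell by 0.67 (adjusted p = 0.0063). The bHLH factor Tcf3 rose by 0.33 (adjusted p = 0.00043), and the blood factors Tal1 and Gata3 fell by 0.60 and 1.36 (adjusted p = 0.038 and 0.024). In Het vs WT only Tal1 (−0.84) and Rbbp8 (0.29) were called, and in KO vs Het Ssbp2 (−0.49) and Rbbp8 (0.27). In these sums over all cells the makeup of the cells also counts. From WT to KO, radial glia-like cells went from 2.02% to 3.03% of cells and intermediate progenitor-like cells from 3.63% to 6.41%. Interneuron-like cells went from 17.45% to 15.7%, and the part of these shares was not tested. For the listed genes, here and within classes below, changes with the prefix as a covariate or without 1 library are not given.

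Within classes 112 of 243 pairs of listed gene and class could be tested, and 42 were called in KO vs WT (17 higher, 25 lower), 7 in Het vs WT (2 higher, 5 lower) and 9 in KO vs Het (3 higher, 6 lower). The share of all genes called in these classes ran from 2.75% to 28.1%, from 0% to 5.49% and from 0.154% to 11.6%. The largest changes in KO vs WT were those of Lhx6 (−2.37) and Isl1 (−1.97) in migrating excitatory neuron-like cells and of Lhx5 and Isl1 (both −1.82) in intermediate progenitor-like cells. In Het vs WT they were Lhx6 in migrating excitatory neuron-like cells (−1.29), Lhx9 in layer V-VI neuron-like cells (1.24), and Isl1 and Lhx6 in layer II-IV neuron-like cells (−1.15 and −0.87). In KO vs Het they were Lhx9 in intermediate progenitor-like cells (−1.28), Lhx6 in migrating excitatory neuron-like cells (−1.08) and Ssbp2 in migrating excitatory and layer V-VI neuron-like cells (−0.78 and −0.68). Lhx6 and Isl1 are known from interneurons and striatal neurons. The summed interneuron marker list in layer II-IV neuron-like cells went from 162 CPM in WT to 74.6 in KO with 13 of 14 genes lower. In migrating excitatory neuron-like cells, where the Lhx6 change was largest, the interneuron list held 229 and 224 CPM with 11 of 14 genes lower, and the summed striatal list went there from 2363 to 1753 with 11 of 13 lower. The part of RNA from those cell types in the changes of Lhx6 and Isl1 was not tested.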

How the data were processed

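Single-cell libraries (10X Genomics 3′ version 3) of 10 embryonic mouse cortices were analysed, 3 WT, 4 Het and 3 KO, grouped by the genotype in the labels. The authors aligned reads to mm10 with Cell Ranger (6.0.2 in the submitters' processing notes and the file headers, an older release in the methods) and deposited raw UMI counts per gene and cell. These counts were used without correction for free RNA.

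Barcodes under 1000 UMIs or over 10% mitochondrial UMIs were dropped. Seurat 5.3.0 (R 4.3.3) clustered them (2000 variable genes, without the members and the listed LIM genes; 30 principal components; reciprocal PCA integration; resolution 0.4). A list could name a cluster where it scored at least 0.5 and at least 3 of its markers were detected in 10% of cells. The name went to the list with most markers among the 10 leading genes, at least 1, and ties to the higher score. So the radial glia-like cluster and 1 interneuron-like cluster scored higher on another list (oligodendrocyte precursor and migrating excitatory neuron). Scrublet in scanpy 1.11.5 called 0% to 1.88% of a library's cells by its own threshold, so the highest-scoring cells were marked instead, up to a share set by the library's barcode number (4.80% to 8.31%), and kept. Libraries shared 4 to 19 barcodes per pair.

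UMIs were summed per embryo and class and tested with edgeR 4.0.16 (filterByExpr, TMM, quasi-likelihood F-test, Benjamini-Hochberg over all genes of a fit, all 10 embryos in the fit). The study's own test across cells takes cells as replicates and was not used. DESeq2 1.42.0 was an alternative. The class difference was tested with the embryo as a block. Fits of single clusters were chosen after the data were seen, and no difference between clusters was tested. The procedure was tested on simulated counts drawn from these samples: of genes changed by 1 on the log2 scale it called 75.8% over all cells and 85.9% in layer II-IV neuron-like cells, and of those changed by 0.5 56.1% and 72.0%. In ganglionic eminence progenitor-like cells it called 54.6% and 16.7%, and in interneuron-like cells 76.5% and 39%. Over all cells 99 and 98 of 17481 genes were changed by these sizes, a far smaller share than the 24.5% called in KO vs WT. These rates therefore need not hold for the real fits.

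The members and gene lists were chosen with earlier results of these data known. Named are the members, Gatad2b, all called list genes over all cells, the 4 largest changes of list genes per comparison within classes, and the 3 genes of highest Pearson r with a member over clusters (log2 of the WT mean CPM plus 1, at least 10 CPM in a cluster). Embryos are separate animals, and in these sums fewer cells and less RNA per cell cannot be told apart.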

Additional observations from a re-analysis of the deposited data

Results flagged for a closer look

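Dixon's test was applied to the 4 Het embryos in 54 combinations of member and class, and chance alone flags about 1 in 20 such groups. In 7 of the 54, 1 Het embryo stood apart from the other 3. The combinations reuse the same 4 embryos. The share of all genes flagged in this way is not given here, so the count is not read as particular to the members. Het 4 was apart for Ldb2 in interneuron-like cells (17.6 CPM, the others 9.35 to 10.4), for Lmo1 in intermediate progenitor-like cells (70.8, the others 92.9 to 97.0) and for Lmo2 in striatal neuron-like cells (11.7, the others 7.09 to 7.67). Het 3 was apart for Lmo2 in migrating excitatory neuron-like cells (8.71, the others 7.92 to 7.99) and for Lmo3 in layer II-IV neuron-like cells (32.3, the others 19.9 to 21.2). Het 2 was apart for Lmo1 in ganglionic eminence progenitor-like cells (69.1, the others 91.3 to 94.2) and for Lmo3 in layer V-VI neuron-like cells (304, the others 242 to 249). Het 4 is the one Het embryo whose library shares its prefix with the WT embryos, and its part in the 3 flags of Het 4 was not tested.

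The KO vs WT change differed from that in layer II-IV neuron-like cells in 22 combinations of member and neural class, each as the log2 change of the class minus that of layer II-IV neuron-like cells by edgeR's interaction test. For Lmo4 the difference was 0.89 in ganglionic eminence progenitor-like, 1.23 in intermediate progenitor-like, 1.40 in interneuron-like, 0.91 in migrating excitatory neuron-like, 0.53 in radial glia-like and 1.15 in striatal neuron-like cells. For Ldb2 it was −2.58 in ganglionic eminence progenitor-like, −1.38 in intermediate progenitor-like, −1.12 in interneuron-like, −0.47 in layer V-VI neuron-like, −1.85 in migrating excitatory neuron-like, −1.31 in radial glia-like and −1.30 in striatal neuron-like cells. For Lmo1 it was −0.50 in intermediate progenitor-like, −1.27 in interneuron-like, −0.73 in layer V-VI neuron-like, −0.68 in migrating excitatory neuron-like and −1.40 in striatal neuron-like cells. For Lmo3 it was −0.79 in intermediate progenitor-like, −0.84 in interneuron-like, −0.54 in layer V-VI neuron-like and −0.79 in striatal neuron-like cells. For migrating excitatory neuron-like cells the Lmo4 and Lmo1 differences depend on the clustering: at resolution 0.8 Lmo4 changed by −1.13 there and −1.16 in layer II-IV neuron-like cells, and Lmo1 by 0.65 and 0.58. The Ldb2 and Lmo1 levels outside the projection neurons are partly near the level in erythroid-like cells given above.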

How the results depend on the processing

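Of 49 called results of a member in a comparison, 27 kept an adjusted p below 0.05 without any one library and 22 lost it without at least 1. Some of the 27 fell under the fold threshold without 1 library. In KO vs WT these were Ldb1 over all cells (lowest 0.221) and Lmo1 in migrating excitatory neuron-like cells (lowest 0.23). In Het vs WT it was Lmo1 in migrating excitatory neuron-like cells (lowest 0.24). With the library prefix as a covariate the pairs called in KO vs WT went from 27 to 8, and the members called over all cells in Het vs WT from 1 to 0. The share of all genes called under that covariate is not given here. Leaving out 1 library gave 17 to 27 pairs in KO vs WT, 3 to 6 in Het vs WT and 8 to 14 in KO vs Het, and over all cells 0 to 1 members in Het vs WT and 0 to 1 in KO vs Het (Lmo4, not called without Het 2, Het 3, KO 1, KO 2 or KO 3). No filter on low counts gave 8 pairs in Het vs WT, and clustering without integration 8 in KO vs Het. Without the erythroid-like class, an alternative chosen after seeing the data, the pairs were 25, 4 and 11.

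The labels give the genotypes the same replicate numbers, but same-numbered embryos did not deviate together (correlations of −0.183 to 0.123), so the numbers do not pair them. With the replicate number as a block, 3, 1 and 1 members were called over all cells in KO vs WT, Het vs WT and KO vs Het, and 29, 6 and 13 pairs in classes.

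Some uncalled values changed sign, and so did the called Ldb2 and Lmo1 changes in KO vs Het at resolution 0.8 given next. Ldb2 over all cells gave −0.117 to 0.001 in Het vs WT without 1 library (0.001 without WT 1 or WT 2), −0.235 in KO vs Het and −0.679 in KO vs WT with classes at equal weight, and −0.004 in KO vs WT at 5% mitochondrial UMIs. The equal weight includes erythroid-like cells, where Ldb2 held 36 UMIs in WT and 2 in KO. Ldb2 in KO vs Het in migrating excitatory neuron-like cells gave 0.056 at resolution 0.8, against −0.62 (adjusted p = 0.022) in the main fit. Lmo1 in KO vs Het in layer II-IV neuron-like cells gave −0.004 at resolution 0.8 and −0.011 in its smaller cluster alone. Lmo2 over all cells gave −0.223 (Het vs WT) and −0.221 (KO vs WT) with the prefix, −0.059 to 0.168 in Het vs WT without 1 library (the lowest without Het 3) and −0.040 in KO vs Het without marked doublets. Lmo3 over all cells gave 0.060 and 0.150 in Het vs WT and KO vs WT with the prefix, and without 1 library −0.105 to 0.018 in Het vs WT (above 0 without WT 2 or Het 1, 0.015), −0.069 to 0.068 in KO vs WT (above 0 without WT 2 or KO 2, 0.062) and −0.030 to 0.120 in KO vs Het (below 0 without Het 1 or KO 1, −0.012). In KO vs Het it gave −0.124 at 5% mitochondrial UMIs. Lmo4 in KO vs WT gave −0.266 in 1 interneuron-like cluster alone. At resolution 0.8 the WT level of Lmo1 in migrating excitatory neuron-like cells was 127 and of Lmo4 in striatal neuron-like cells 943. The share of WT cells with a UMI moved with depth: at 1000 UMIs per cell and without thinning it was 43.6% and 82.6% for Lmo4 and 10.4% and 51.6% for Ldb1 in striatal neuron-like cells, 16.9% and 78.5% for Lmo1 in migrating excitatory neuron-like cells, and 21.8% and 78.7% for Lmo3 and 14.2% and 74.6% for Ldb2 in layer V-VI neuron-like cells. For Lmo2 in endothelial-like cells it was 30.2% at 1000 UMIs. The cause of these moves was not tested.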
